A study of Rattus norvegicus with 9 samples.

Results

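Iron enters most cells as transferrin captured by transferrin receptor 1, is reduced and carried out of the endosome by divalent metal transporter 1, is stored in a ferritin shell built of heavy and light chains, and leaves the cell through ferroportin. Iron regulatory proteins 1 and 2 bind iron-responsive elements in the messenger RNAs of several of these genes when cell iron is low: they hold back translation of ferritin and ferroportin and protect the transferrin receptor message. In bone and marrow, erythroid precursors are the heaviest importers of iron, and macrophages that engulf spent red cells store it and export it again.

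Rows of the gene count table were taken by symbol for 8 genes of 31125 gene rows: Tfrc (transferrin receptor 1), Slc11a2 (divalent metal transporter 1), Slc11a1 (its phagosomal relative NRAMP1), Fth1 and Ftl1 (ferritin heavy and light chains), Slc40a1 (ferroportin), Aco1 (cytosolic aconitase, which is iron regulatory protein 1 when it lacks its iron-sulphur cluster) and Ireb2 (iron regulatory protein 2). All 8 passed the low-count filter and were tested. Ftl1 had a further row on chromosome 10, a short model with 11 counts over the Sham libraries, 0 over GPI and 3 over GMTT, and the abundant row was used.

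The libraries were bulk RNA from whole femurs of male rats, 3 libraries in each of 3 groups, all at day 7. Sham femurs had sham surgery; GPI femurs had an injury of the distal femoral growth plate; GMTT femurs had the same injury and a hydrogel that the series title describes as GelMA (methacrylated gelatin) carrying tea polyphenols and TPGS, which is derived from vitamin E. The labels give neither strain nor age. They do not say whether animals were pooled, and the p-values therefore speak only of the variation among these libraries. The 9 libraries held 15927429 to 19715997 counts.

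The groups differed in tissue makeup, and these values stand beside every result below. Skeletal muscle markers took 0.264% to 0.281% of the counts in Sham libraries, 13.1% to 13.4% with injury and 2.56% to 2.74% with hydrogel; all 14 markers tested were higher in GPI than in Sham. Erythroid markers took 1.41% to 1.42%, 0.00186% to 0.00198% and 0.757% to 0.762%, with 10 of 10 lower in GPI. Neutrophil markers took 0.932% to 0.999%, 0.000526% to 0.000644% and 1.11% to 1.17%, with 9 of 9 tested lower in GPI. Macrophage and monocyte markers took 0.0620% to 0.0651%, 0.00491% to 0.00521% and 0.0663% to 0.0709%, with 9 of 9 tested lower in GPI and Marco at 0 in every library. Osteoblast and osteocyte markers took 0.0967% to 0.103%, 0.0131% to 0.0140% and 0.0731% to 0.0755%, with 8 of 8 lower in GPI. Chondrocyte markers took 0.0250% to 0.0267%, 0.0204% to 0.0205% and 0.0368% to 0.0397%, with 4 of 7 tested higher and 2 lower in GPI on the TMM scale. In bulk tissue, fewer cells of a type and less RNA per cell cannot be told apart. With TMM scaling (trimmed mean of M-values, which sets libraries level on the bulk of their genes) the median gene changed by -0.19 (log2) in GPI against Sham, and with library sizes only by -1.28, so a member whose direction depends on this choice is named with both values.

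Per the deposited table, on build mRatBN7.2, Tfrc lies on chromosome 11 at 68163413 to 68185257 (ENSRNOG00000001766), Slc40a1 on chromosome 9 at 48033526 to 48051481 (ENSRNOG00000003872) and Slc11a1 on chromosome 9 at 75957316 to 75968101 (ENSRNOG00000014956). Slc11a2 lies on chromosome 7 at 131503081 to 131540145 (ENSRNOG00000019550), Aco1 on chromosome 5 at 55259827 to 55316391 (ENSRNOG00000005849) and Ireb2 on chromosome 8 at 55228085 to 55311611 (ENSRNOG00000013271). Fth1 (chromosome 1, 206627103 to 206725424, ENSRNOG00000022619) and Ftl1 (chromosome 1, 95936387 to 95939725, ENSRNOG00000064385) are the entries with overlapping neighbours of weight: the Fth1 model spans 5 other genes, the largest of which held 17644 counts over all libraries against 201920 for Fth1, and Ftl1 overlaps Bax on the same strand, which held 3251 against 125605. All 8 are protein-coding gene models and their values count the whole gene, not an exon.

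The upstream sequences of the import receptor and the exporter are shown because results below turn on the pair Tfrc and Slc40a1, both of which have an entry in the RefSeq promoter table (build GRCr8), which matched 5 of the 8 genes with 6 windows. Each run is the 250 bases before the start of the gene, on the gene's own strand. Capitals mark ACGTG (the core bound by hypoxia-inducible factors) and TGACGT (a CRE-type core) in Tfrc, and GGGCGG (the GC box, on either strand, CCGCCC when reversed) in Slc40a1.
Tfrc, chr11:81690319-81690568, minus strand: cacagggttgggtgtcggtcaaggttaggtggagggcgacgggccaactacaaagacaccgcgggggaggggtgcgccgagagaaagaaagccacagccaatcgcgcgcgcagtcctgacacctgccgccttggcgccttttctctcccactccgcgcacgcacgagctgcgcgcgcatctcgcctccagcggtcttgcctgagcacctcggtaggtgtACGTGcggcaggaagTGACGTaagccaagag
Slc40a1, chr9:55543461-55543710, minus strand: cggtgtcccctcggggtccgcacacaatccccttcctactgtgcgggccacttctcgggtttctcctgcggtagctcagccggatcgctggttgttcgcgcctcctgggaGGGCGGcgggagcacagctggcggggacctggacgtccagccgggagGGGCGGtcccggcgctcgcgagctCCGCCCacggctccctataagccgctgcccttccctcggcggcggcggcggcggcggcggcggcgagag
The Tfrc window held the hypoxia-type core once, beginning 31 bases before the start, and the CRE-type core once, beginning 16 bases before it. The Slc40a1 window held neither and had 3 GC boxes, beginning 140, 93 and 69 bases before the start, where Tfrc had 0. Searched on both strands, with overlaps between motifs allowed, the hypoxia-type core occurred in 16.6% of all 33469 windows in the table, the CRE-type core in 6.95% and the GC box in 30.5%. The windows of Slc11a2, Aco1 and Ireb2 held neither of the first 2 cores. GC boxes were not particular to Slc40a1: Aco1 had 3 and Ireb2 had 2. Slc11a2 had 4 in its window at 133417789 to 133418038 and 0 in its other window.

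The core of GATA factor sites, searched as GATAA (23.5% of all windows), was in none of the 6 windows.

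An antioxidant response element core, searched as TGANNNNGC (34.7% of all windows), was in 1 of the 2 Slc11a2 windows and in none of the other members' windows.

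The first comparison, GPI against Sham, asks what differed 7 days after growth plate injury. The ferritin light chain, ferroportin and both NRAMP transporters were lower in injured femurs, Aco1 was higher, and the transferrin receptor, the ferritin heavy chain and Ireb2 moved little on the TMM scale. By edgeR's quasi-likelihood test, 3 members were higher and 4 lower at a Benjamini-Hochberg adjusted p below 0.05, in a table where 40.1% of all 15936 tested genes were called higher and 48.1% lower, and 88.2% either way. Scaled by library size alone, 1 member was higher and 7 were lower, against 22.1% and 70.3% of all genes. The normalised CPM of GPI and Sham did not overlap for 7 of 8 members, and did not for 88.3% of all tested genes, so the members changed about as often as genes in general.

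Tfrc, the main port of entry for transferrin-bound iron, had 1532, 1600 and 1462 normalised CPM in the Sham libraries and 1839, 1748 and 1777 in the GPI libraries. Every GPI library lay above every Sham library, by a small margin. Its log2 fold change was 0.22 (SE 0.05, adjusted p = 6.16e-05 by edgeR's quasi-likelihood test), and -0.87 with library sizes only, so its direction depends on the scaling. Tfrc did not follow the erythroid markers: within libraries, its counts relative to the summed erythroid markers were 8.66 (log2) higher in GPI than in Sham, and the difference relative to the summed muscle markers was -6.49.

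Slc11a2, which moves ferrous iron out of the endosome behind the receptor, had 96.3, 95.6 and 105 normalised CPM in Sham and 48.5, 53.9 and 46.2 in GPI. The groups did not overlap. Its log2 fold change was -0.997 (SE 0.06, adjusted p = 3.97e-16, same edgeR test), while the receptor it serves was not lower on this scale.

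Slc11a1, which pumps metals across the phagosome membrane of macrophages and neutrophils, had 17.6, 16.1 and 16.4 normalised CPM in Sham and 0.931, 0.588 and 0.963 in GPI. These GPI values rest on 11, 7 and 10 counts. It was the member that fell furthest, 20.2-fold, a log2 fold change of -4.33 (SE 0.18, adjusted p = 4.90e-21, same edgeR test). The fall was deeper than that of the summed macrophage and monocyte markers (a log2 difference of -1.82 within libraries) and shallower than that of the neutrophil markers (5.25).

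Storage split by chain. Fth1, whose subunit carries the ferroxidase activity of ferritin, had 1364, 1413 and 1486 normalised CPM in Sham and 1276, 1428 and 1345 in GPI, and these ranges overlapped. Its log2 fold change was -0.07 (SE 0.05, adjusted p = 0.12, same edgeR test) and -1.17 with library sizes only. It passed the threshold as lower without GPI replicate 2 (-0.12, adjusted p = 0.0249, edgeR), without Sham replicate 1 (-0.11, adjusted p = 0.0418, edgeR) and with no low-count filter (-0.10, adjusted p = 0.0475, edgeR). Ftl1, the light chain that aids mineralisation of the stored iron, had 1068, 1035 and 1090 normalised CPM in Sham and 108, 110 and 106 in GPI. All GPI libraries sat within a narrow band far below Sham. It was 9.85-fold lower, a log2 fold change of -3.30 (SE 0.05, adjusted p = 3.11e-33, same edgeR test).

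The ratio of Fth1 to Ftl1 does not depend on how libraries are scaled to each other. In FPKM, which divides by gene length, it was 3.12, 3.34 and 3.34 in Sham and 29.0, 31.7 and 31.0 in GPI. Heavy chain message thus outnumbered light chain message by a far wider margin in every GPI library, and the mean ratio was 9.35-fold higher (exact 2-sided permutation p = 0.1, the smallest that 3 against 3 can give; adjusted p = 0.107 over 15 such exact tests). The level of the ratio, unlike its change, depends on the deposited gene lengths of 985 bases for Fth1 and 2411 for Ftl1. Ferritin has many processed copies, and reads shared with them could be split. Fth1-ps5 held 3.89% as many counts as Fth1. Its unscaled counts were 3365 over the Sham libraries, 1913 over GPI and 2567 over GMTT, beside 92810, 46026 and 63084 for Fth1. The listed Ftl1 copies held at most 0.121% of the Ftl1 counts each.

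**Figure D1:**
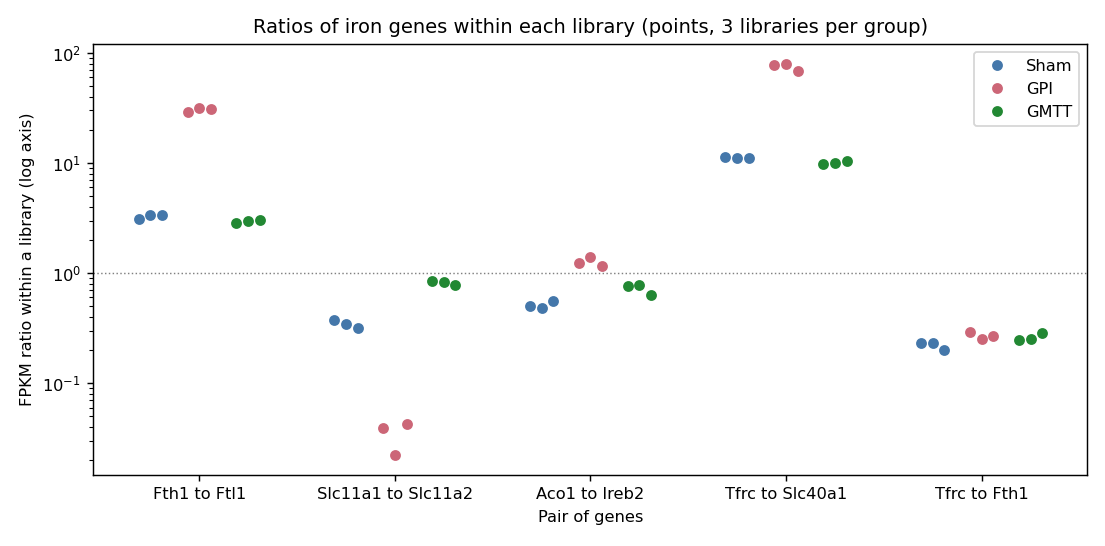
Ratios of FPKM between pairs of iron genes within each library (points, log axis; Sham, GPI and GMTT side by side). Fth1 to Ftl1 is near 3 in Sham and GMTT and near 31 in GPI, and Tfrc to Slc40a1 is near 11, 75.5 and 10.1 in Sham, GPI and GMTT.

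Slc40a1, the exporter, had 214, 225 and 208 normalised CPM in Sham and 37.2, 34.4 and 40.7 in GPI. The groups were far apart relative to their spread. It was 5.75-fold lower in GPI, a log2 fold change of -2.53 (SE 0.06, adjusted p = 2.27e-27, same edgeR test). Relative to the summed macrophage and monocyte markers it stood level, at a difference of 0.02 (log2) within libraries. Relative to neutrophil, erythroid and osteoclast markers it was 7.09, 5.91 and 1.30 higher. The difference was -0.73 for osteoblast and osteocyte, -3.28 for chondrocyte, -3.94 for endothelial, -6.96 for adipocyte and -9.24 for muscle markers. A sum hides unequal falls: Mrc1 averaged 63.0 normalised CPM in Sham and 25.6 in GPI, and Cd68 54.5 and 3.71. Import and export messages moved apart: Tfrc to Slc40a1, in FPKM, was 11.3, 11.2 and 11.1 in Sham and 77.7, 80.0 and 68.6 in GPI, a 6.73-fold higher ratio (exact permutation p = 0.1, adjusted p = 0.107).

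Aco1 was the member that rose most. It had 25.5, 24.6 and 26.2 normalised CPM in Sham and 70.9, 75.2 and 69.2 in GPI, with no overlap. The rise was 2.82-fold, a log2 fold change of 1.496 (SE 0.06, adjusted p = 1.93e-20, same edgeR test), and it stayed a rise, of 0.40, with library sizes only. Ireb2, the other iron regulatory protein, had 104, 103 and 95.8 in Sham and 116, 109 and 122 in GPI, and changed by 0.20 (SE 0.06, adjusted p = 0.00171, same edgeR test) or by -0.89 with library sizes only. Aco1 to Ireb2, in FPKM, was 0.501, 0.486 and 0.554 in Sham and 1.24, 1.40 and 1.15 in GPI (ratio 2.45-fold higher, exact permutation p = 0.1, adjusted p = 0.107). The order of the pair per length thus turned over in every GPI library. That order, unlike the change, depends on the deposited gene lengths of 4052 bases for Aco1 and 8229 for Ireb2. In counts the ratio was 0.246, 0.239 and 0.273 in Sham and 0.609, 0.690 and 0.565 in GPI, below 1 throughout.

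On the TMM scale, members whose messages are known to carry iron-responsive elements did not share a direction, and with library sizes only they did. Ahead of the coding region the element is found in Fth1, Ftl1 and Slc40a1, which changed by -0.07, -3.30 and -2.53 (log2, TMM scale). After the coding region it is found in Tfrc and in some Slc11a2 transcripts, and these genes changed by 0.22 and -0.997. The Fth1 change was not called. With library sizes only, Fth1, Ftl1 and Slc40a1 changed by -1.17, -4.39 and -3.62, and Tfrc and Slc11a2 by -0.87 and -2.09. All of these were called lower, as were 70.3% of all tested genes at that setting. Gene-level counts do not separate the Slc11a2 transcripts with and without the element.

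**Figure D2:**
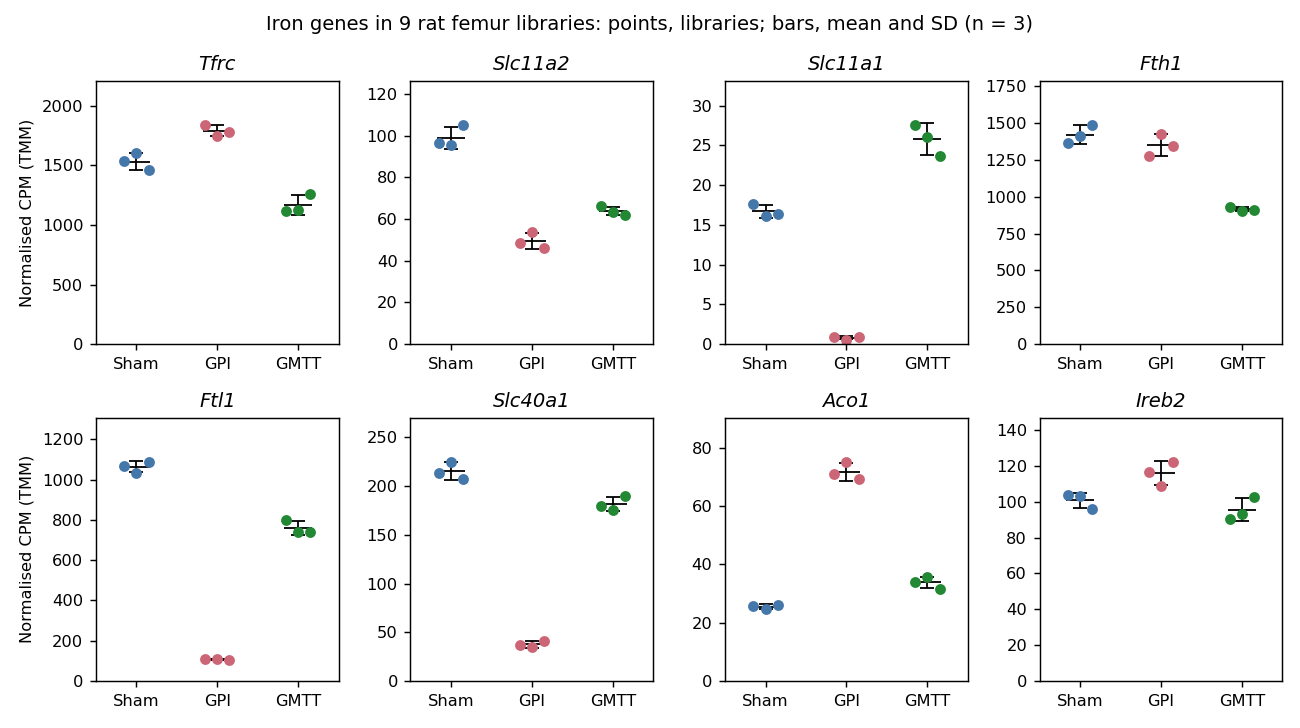
Normalised CPM (TMM) of the 8 iron genes by group; points are libraries, bars the mean and SD (n = 3), and each panel has its own axis from 0. Ftl1, Slc40a1 and Slc11a1 are lowest in GPI, Aco1 is highest there, and Fth1 is lowest in GMTT; with library sizes only, Tfrc, Fth1 and Ireb2 are lower in GPI than in Sham and GMTT, and Aco1 is level between GPI and GMTT.

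The second comparison, GMTT against GPI, asks what differed in injured femurs that received the hydrogel. It shares the GPI libraries with the first, so its values are given for themselves. Ftl1, Slc40a1 and both NRAMP genes were higher in treated femurs, and Tfrc, Fth1, Aco1 and Ireb2 were lower on the TMM scale. All 8 members were called, 4 higher and 4 lower, where 45.7% of all tested genes were called higher and 40.2% lower, and 85.9% either way. With library sizes only, 7 were higher and 0 lower (72.2% and 18.9% of all genes). Normalised CPM did not overlap for 8 of 8 members and for 86.2% of all genes.

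Slc11a1 reached 27.6, 26.1 and 23.7 normalised CPM in GMTT, 31.1-fold above GPI (log2 4.96, SE 0.16, adjusted p = 1.52e-23, edgeR's quasi-likelihood test). Ftl1 reached 799, 741 and 741, 7.04-fold above GPI (log2 2.81, SE 0.05, adjusted p = 2.93e-31, same edgeR test). Slc40a1 reached 180, 176 and 190, 4.85-fold above GPI (log2 2.28, SE 0.06, adjusted p = 5.20e-26, same edgeR test). These 3 were the members furthest below Sham in GPI, and all 3 GMTT libraries of each lay far above the GPI range. Macrophage and neutrophil markers were higher in GMTT too, 9 of 9 tested in each list. So were 10 of 10 erythroid, 7 of 7 osteoclast and 8 of 8 osteoblast and osteocyte markers. On the same TMM scale, all 14 tested skeletal muscle markers were lower, as were 5 of 6 adipocyte, 5 of 7 chondrocyte and 5 of 6 endothelial markers. As a share of counts, the summed chondrocyte markers were higher in GMTT (0.0368% to 0.0397%) than in GPI (0.0204% to 0.0205%). The summed endothelial markers were also higher by share (0.0474% to 0.0515% against 0.0458% to 0.0471%), so these 2 directions depend on the scaling. The part of any cell type in these rises was not tested. Slc11a2, at 66.1, 63.5 and 62.1, was 1.29-fold above GPI (log2 0.36, SE 0.06, adjusted p = 3.31e-06, same edgeR test).

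Tfrc had 1119, 1124 and 1261 normalised CPM in GMTT, a log2 fold change of -0.61 against GPI (SE 0.05, adjusted p = 1.44e-13, same edgeR test) that turned to 0.49 with library sizes only. Fth1 had 931, 903 and 910, a change of -0.56 (SE 0.05, adjusted p = 4.57e-13, same edgeR test) that turned to 0.54. Both are thus lower or higher in GMTT than in GPI by the choice of scaling, whereas their ratio to each other barely moved between these 2 groups. Tfrc to Fth1, in FPKM, was 0.294, 0.250 and 0.270 in GPI and 0.245, 0.254 and 0.283 in GMTT, with overlapping values (exact permutation p = 0.6). In Sham it was lower, at 0.229, 0.231 and 0.201. It was 1.23-fold higher in GPI and 1.18-fold higher in GMTT than in Sham, without overlap (exact permutation p = 0.1 each, adjusted p = 0.107). Aco1 had 34.0, 35.6 and 31.7, a change of -1.09 (SE 0.06, adjusted p = 5.20e-17, same edgeR test) and of 0.02, not called, with library sizes only. Ireb2 had 90.4, 93.4 and 103, a change of -0.28 (SE 0.06, adjusted p = 4.49e-05, same edgeR test) that turned to 0.82.

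**Figure D3:**
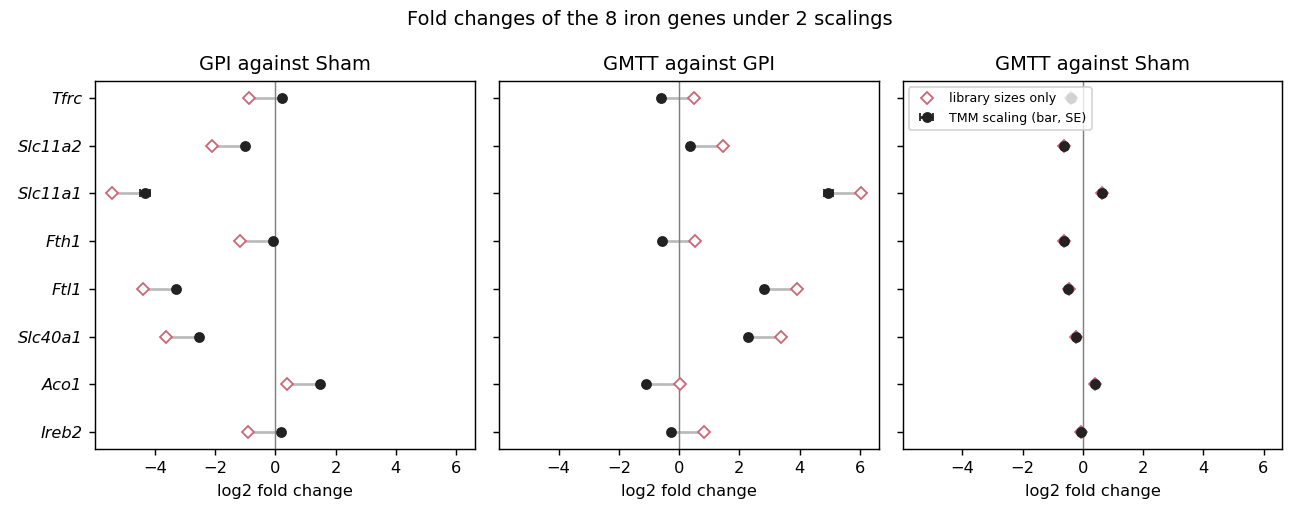
Log2 fold changes of the 8 iron genes in the 3 comparisons with TMM scaling (filled points, bars are SE) and with library sizes only (open diamonds). In GPI against Sham, Tfrc and Ireb2 change sign between the scalings; in GMTT against GPI, Tfrc, Fth1, Aco1 and Ireb2 do; in GMTT against Sham the scalings nearly coincide.

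The ratios returned close to Sham in 2 of the pairs. Fth1 to Ftl1 was 2.85, 2.98 and 3.00 in GMTT, 10.4-fold below GPI, and Tfrc to Slc40a1 was 9.80, 10.1 and 10.4, 7.46-fold below GPI (exact permutation p = 0.1 each, adjusted p = 0.107). Slc11a1 to Slc11a2 was 0.371, 0.341 and 0.316 in the Sham libraries, 0.0389, 0.0221 and 0.0423 in the GPI libraries, and 0.847, 0.834 and 0.772 with hydrogel, so this pair passed beyond its Sham level. Aco1 to Ireb2 was 0.763, 0.775 and 0.626 in GMTT, between the other groups.

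The third comparison, GMTT against Sham, asks what still differed from sham surgery, and here both scalings gave nearly the same values. It shares its groups with the other comparisons. The storage, uptake and export genes were modestly lower in treated femurs and Slc11a1 and Aco1 were higher. Of the members, 2 were called higher and 5 lower, against 29.5% and 28.3% of all tested genes (57.8% either way; with library sizes only the members' count was the same, against 30.1% and 27.4%), and none changed as much as 2-fold. Normalised CPM did not overlap for 7 of 8 members, and for 61.7% of all genes.

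Fth1 was 1.55-fold lower in GMTT than in Sham (log2 -0.64, SE 0.05, adjusted p = 1.25e-13, edgeR's quasi-likelihood test), and every GMTT library (903 to 931 normalised CPM) lay below every Sham library (1364 to 1486). Ftl1 was 1.40-fold lower (log2 -0.48, SE 0.04, adjusted p = 2.42e-11, same edgeR test). Both ferritin chains were therefore lower together, and their ratio differed by -0.15 (log2), without overlap. Slc11a2 changed by -0.63 (SE 0.06), Tfrc by -0.39 (SE 0.05) and Slc40a1 by -0.25 (SE 0.05), with adjusted p of 2.59e-11, 1.79e-08 and 0.000129 in the same edgeR test. The 10 erythroid markers were lower in GMTT than in Sham as well, with a median of -0.92. Osteoblast and osteocyte markers had 5 of 8 lower and 1 higher, and osteoclast markers 3 lower and 3 higher. All 14 tested skeletal muscle markers were higher (median 3.21), as were 6 of 6 adipocyte (1.85) and 5 of 6 endothelial markers (0.28). Of the 7 tested chondrocyte markers, 2 were higher and 1 lower. The part of any cell type in these differences was not tested.

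Slc11a1 was 1.54-fold higher in GMTT than in Sham (log2 0.63, SE 0.08, adjusted p = 3.47e-08, same edgeR test), with 23.7 to 27.6 normalised CPM against 16.1 to 17.6. The neutrophil markers had 6 of 9 tested genes higher and 0 lower, with a median of 0.40, and the macrophage and monocyte markers 5 higher and 3 lower, with a median of 0.23; their part was not tested. Aco1 was 1.33-fold higher (log2 0.41, SE 0.06, adjusted p = 2.23e-06, same edgeR test). Ireb2 was at -0.08 (SE 0.06, adjusted p = 0.234, same edgeR test), with overlapping groups, and passed as lower without GMTT replicate 3 (-0.13, adjusted p = 0.0432, edgeR).

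**Figure D4:**
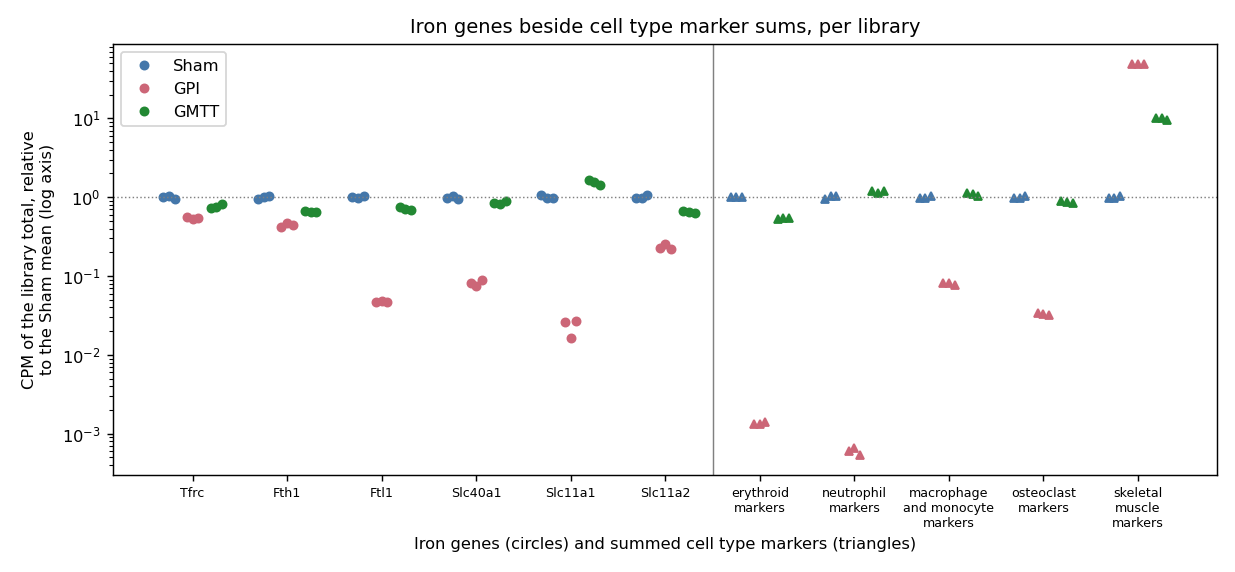
CPM of the library total relative to the Sham mean (log axis) for 6 iron genes (circles) and for the summed markers of 5 cell types (triangles), per library. Slc40a1 sits near the macrophage and monocyte markers in GPI, Ftl1 lies between them and the osteoclast markers, and Tfrc and Fth1 stay far above the erythroid and neutrophil markers.

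The order of the 8 messages per length also differed between groups. In Sham, Fth1 was the most abundant at 1408 ± 59.8 FPKM (SD, n = 3), then Ftl1 at 431 ± 9.43 and Tfrc at 310 ± 15.3, followed by Slc40a1, Slc11a2, Ireb2, Slc11a1 and, last, Aco1 at 6.13 ± 0.159; no neighbours in this order overlapped. In GPI, Tfrc (369 ± 9.66) stood above Ftl1 (44.7 ± 0.613), Aco1 rose to the fourth place (17.6 ± 0.692) and Slc11a1 was last (0.342 ± 0.0870), again with no overlap between neighbours. GMTT had the Sham order, and Ireb2 (11.6 ± 0.740) and Slc11a1 (10.7 ± 0.854) overlapped. FPKM compares genes within a library here; between groups it carries the authors' own scaling.

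A wider set of 40 iron genes was taken by role, of which 35 were tested; Hamp, Tmprss6, Ftmt, Hpx and Mcoln1 were too low. In GPI against Sham, 14 were called higher and 19 lower, with a median of -0.35 beside -0.19 for all tested genes, of which 40.1% were called higher and 48.1% lower. With library sizes only these were 5 and 24, against 22.1% and 70.3%. In GMTT against GPI, 19 were higher and 14 lower, against 45.7% and 40.2% of all tested genes, and with library sizes only 25 and 4, against 72.2% and 18.9%. In GMTT against Sham, 12 were higher and 15 lower, against 29.5% and 28.3%. These genes were thus called about as often as genes in general in GPI against Sham, where 88.2% of all tested genes were called in either direction. The same shares of all tested genes stand beside the counts by role below.

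Among 6 transferrin cycle genes, 1 was called higher and 4 lower in GPI, and 1 and 5 with library sizes only. Tf, transferrin itself, had a mean of 1298 normalised CPM in Sham against 59.7 in GPI, a log2 fall of -4.44, and Tfr2, the second transferrin receptor, expressed in erythroid cells, fell by 8.02 on 6 counts over the GPI libraries against 3085 in Sham. Tfrc, at 0.22, did not share these falls on the TMM scale. With library sizes only it was lower, at -0.87, beside -5.53 for Tf and -9.07 for Tfr2. Steap3, the ferrireductase of the erythroid endosome, changed by -0.71, and Steap4, a metalloreductase, rose by 1.79 in GPI. In GMTT against Sham, Tf was higher by 0.46 and Tfr2 lower, at -0.95.

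Importers outside the transferrin route went both ways. Slc39a8 changed by -4.68 in GPI and its relative Slc39a14, a transporter of iron not bound to transferrin, by 1.36, which was 0.27 with library sizes only. Slc39a14 was also higher in GMTT than in Sham, by 1.01 (SE 0.08). Lcn2, the siderophore-binding lipocalin of neutrophil granules, changed by -6.84 in GPI and by 0.26 in GMTT against Sham.

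Of the 5 tested genes that work with ferroportin or signal to hepcidin, 3 were called higher and 1 lower in GPI on the TMM scale, and 1 higher and 2 lower with library sizes only. Hjv, the BMP co-receptor hemojuvelin, which skeletal muscle also expresses, averaged 14.9 normalised CPM in Sham against 916 in GPI and 101 in GMTT (log2 5.94 and 2.77 against Sham, SE 0.06 each), the same order as the muscle markers. Heph, a ferroxidase that works with ferroportin, changed by -1.17 in GPI, and Cp, the circulating ferroxidase, by -0.08, which was not called, and by -1.18, called lower, with library sizes only. Bmp6, which signals iron status to hepcidin in liver, rose by 1.24 in GPI on the TMM scale and stood at 0.14 with library sizes only. Hamp, which encodes hepcidin itself, had 3 counts over Sham, 0 over GPI and 2 over GMTT.

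The iron chaperone genes Pcbp1 and Pcbp2, which deliver iron to ferritin, changed by -0.44 and -0.62 in GPI, and Fbxl5, the iron sensor that leads to breakdown of iron regulatory proteins, by -0.26. These shifts are small beside that of Ftl1 (-3.30) on the TMM scale. With library sizes only they were -1.53, -1.71 and -1.36, all called lower, beside -4.39 for Ftl1 and a median of -1.28 for all tested genes. Ncoa4, the receptor for ferritin breakdown, had 332 counts over Sham, 12 over GPI and 266 over GMTT, but a second Ncoa4 model overlaps it on the same strand and held 0 counts, so its level is uncertain.

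Mitochondrial iron genes went both ways. Slc25a37 (mitoferrin 1) and Abcb10, both of erythroid heme synthesis, changed by -6.07 and -2.61 in GPI, whereas Slc25a28 (mitoferrin 2), of broad expression, rose by 0.79 on the TMM scale and stood at -0.30 with library sizes only. In GPI, 5 of these 8 genes were called higher and 3 lower on the TMM scale, and 2 higher and 5 lower with library sizes only. In GMTT against Sham, 1 was higher and 5 were lower with either scaling. Of all tested genes, 29.5% were higher and 28.3% lower on the TMM scale, and 30.1% and 27.4% with library sizes only.

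Heme capture and breakdown genes had 4 of 9 tested called higher and 5 lower in GPI on the TMM scale, and 0 higher and 6 lower with library sizes only. Hmox1, the inducible heme oxygenase that frees iron from heme, changed by -3.57, Blvrb by -3.03, the hemoglobin receptor gene Cd163 of macrophages by -2.66 and Hp (haptoglobin) by -5.29. Hmox2, the constitutive oxygenase, rose by 1.11 on the TMM scale and stood at 0.02 with library sizes only. In GMTT against Sham, Hmox1 was lower, at -0.61, Hp higher, at 1.09, and Cd163 was at -0.12, not called (adjusted p = 0.0644, edgeR's quasi-likelihood test).

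**Figure D5:**
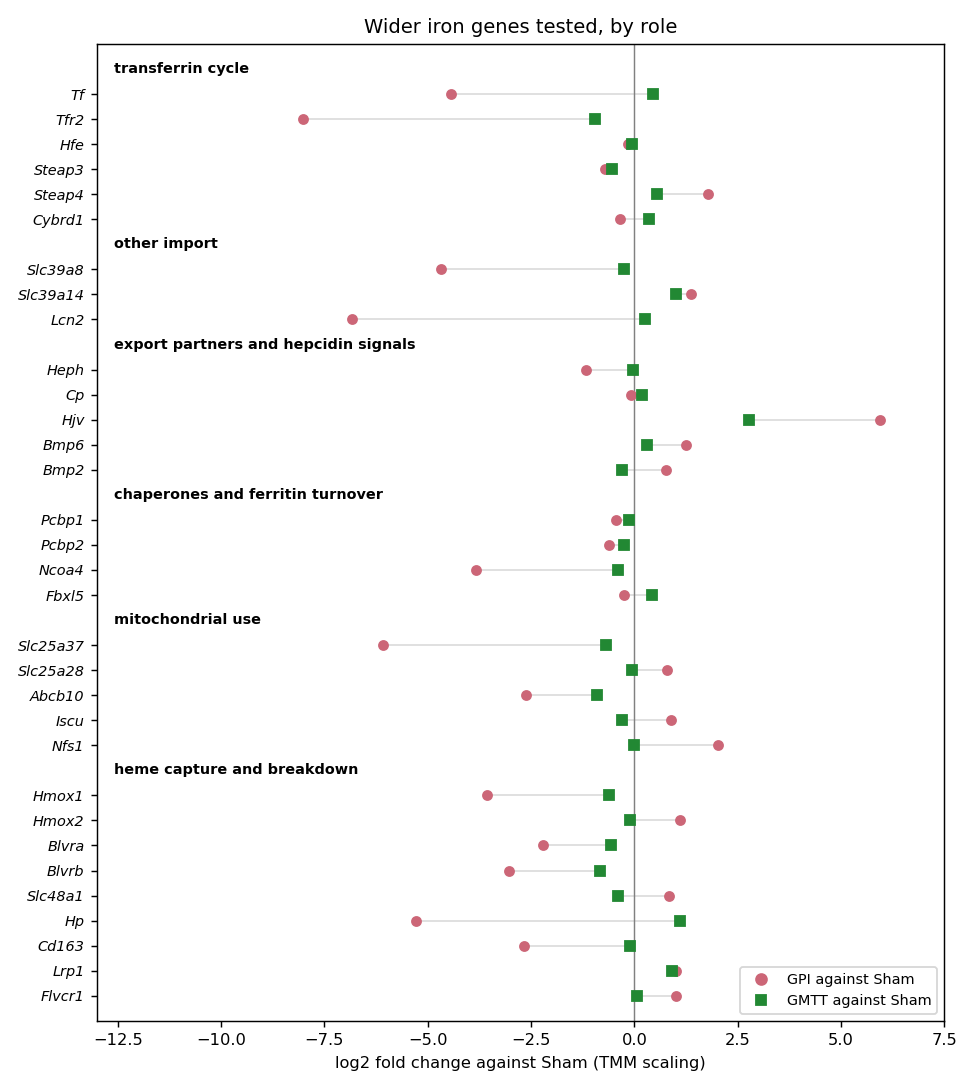
Log2 fold changes against Sham (TMM scaling) of 32 of the 35 tested genes of the wider iron set, by role; circles are GPI and squares GMTT. Tfr2, Lcn2 and Slc25a37 are furthest below 0 in GPI and Hjv furthest above; in GMTT most genes lie within 1 of 0, with Hjv at 2.77. With library sizes only, Bmp2, Slc25a28, Iscu, Slc48a1, Lrp1 and Flvcr1 are below 0 in GPI.

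The genes whose pattern over the 9 libraries was most like each member were found by the root mean square difference of centred log2 CPM. Closest to Tfrc was Mat2a, an S-adenosylmethionine synthase subunit (0.0406), and closest to Slc40a1 was Btg1, an antiproliferative factor (0.0603). Ftl1 was closest to Nsd2 (0.0709) and Cdk2 (0.0772), a histone methyltransferase and a cell cycle kinase, and among those close to Fth1 was Cat, the gene of catalase (0.0581). Among those close to Slc11a1 was Srgn, the proteoglycan serglycin of blood cell granules, at a wider difference of 0.226. Slc11a2 was nearest to Dnajb2 (0.0484), Aco1 to Tas1r2 (0.0276) and Ireb2 to Cdv3 (0.0336). With 3 groups this far apart, close patterns are common: 1071 of 9300 genes correlated with Ftl1 above 0.99 and 910 with Slc40a1, against 1 each for Tfrc and Fth1, and the points share libraries, depth and scaling.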

How the data were processed

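Poly(A) RNA libraries were made with a strand-specific dUTP protocol from TRIzol extracts, per the labels' protocols. The authors deposited raw read counts per gene and FPKM per gene for 9 libraries; mRatBN7.2 is the build in the submitters' processing notes, with no aligner or counter named there. The authors' FPKM carried a library scaling close to TMM, so FPKM was used for levels and ratios within libraries. Members and lists were chosen with earlier results of these data known. Of 31125 genes, 15936 passed filterByExpr (minimum count 10) and were tested with edgeR 4.0.16 (TMM, robust quasi-likelihood, all 9 libraries, Benjamini-Hochberg) in R 4.3.3, after the code was tested on simulated data. A standard error is the log2 fold change divided by the root of F. Named genes are the members, the fixed iron lists by role, and the 3 nearest patterns per member, of which the closest are printed; a few of these genes are counted but not reported here. Osteoclast markers took 0.0772% to 0.0807% of counts in Sham, 0.00255% to 0.00264% in GPI and 0.0670% to 0.0707% in GMTT; adipocyte markers 0.0137% to 0.0142%, 0.137% to 0.142% and 0.0337% to 0.0355%; endothelial markers 0.0366% to 0.0515% over all libraries. Alternatives were other scalings, filters and fits, DESeq2 1.42.0, a 2-fold minimum, limma 3.58.1 on log2 FPKM with a pseudocount of 1 or 0.1, and each library left out. Exact tests used SciPy 1.17.1.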

Additional observations from a re-analysis of the deposited data

How the results depend on the processing

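Leaving out each library kept 213 of 216 member results in direction and call, and the 3 others became calls (named above). With library sizes only, members called were 1 higher and 7 lower in GPI against Sham and 7 higher and 0 lower in GMTT against GPI, and the wider iron genes called were 5 higher in the first and 4 lower in the second. With a 2-fold minimum, Slc11a1, Ftl1 and Slc40a1 stayed called lower in GPI against Sham, and Slc11a2 did not. The same 3 stayed called higher in GMTT against GPI, again without Slc11a2. Members called were otherwise 1 higher (Aco1) in GPI against Sham, 0 lower in GMTT against GPI, and 0 in either direction in GMTT against Sham. Wider iron genes called in GPI against Sham were 7 higher, and their lower count is not printed here. They were 12 higher and 8 lower in GMTT against GPI, and 1 higher and 0 lower in GMTT against Sham. Of all 15936 tested genes, this minimum left 3913 higher and 4456 lower in GPI against Sham. It left 3986 and 3442 in GMTT against GPI, and only 909 and 132 in GMTT against Sham.

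Signs that turned with library sizes only in GPI against Sham were Tfrc (-0.87), Ireb2 (-0.89), Bmp2 (-0.32), Slc25a28 (-0.30), Iscu (-0.21), Slc48a1 (-0.27), Lrp1 (-0.094) and Flvcr1 (-0.082). In GMTT against GPI they were Tfrc (0.49), Fth1 (0.54), Aco1 (0.015), Ireb2 (0.82), Slc39a14 (0.75), Bmp6 (0.17), Bmp2 (0.027), Slc25a28 (0.25), Lrp1 (1.02) and Flvcr1 (0.17). The scaling itself makes these shifts. In GMTT against Sham, Heph and Nfs1, neither of them called, turned positive with median-of-ratios scaling (0.0085 and 0.0214), limma with pseudocount 1 (0.0029 and 0.0152) or 0.1 (0.0041 and 0.0159) and DESeq2 (0.0027 and 0.0163); the cause was not tested.

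Leaving out 1 library moved Hfe, not called, from -0.34 to 0.11 in GPI against Sham, from -0.16 to 0.29 in GMTT against GPI and from -0.21 to 0.054 in GMTT against Sham; Heph from -0.089 to 0.029 and Nfs1 from -0.024 to 0.0057 in the last; and the Tfrc to Fth1 ratio in GMTT against GPI from -0.12 to 0.0034 (log2).

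The labels do not say whether replicate numbers pair the samples. Same-numbered libraries correlated at -0.146 to 0.0614 in their deviations from the group means, and different-numbered libraries at -0.085 to 0.118. With 3 libraries per group, these correlations cannot exclude a pairing. With the replicate block, members called stayed at 3 higher and 4 lower, 4 and 4, and 2 and 5 in the 3 comparisons. Of all 15936 tested genes, this block gave 6342 higher and 7618 lower, 7222 and 6352, and 4525 and 4290.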
